A study of Homo sapiens with 12 samples.

Results

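Ceramide synthesis and turnover was followed here through the transcripts of 10 genes, taken by their symbols from the count tables of 2 human liver cancer cell lines, HepG2 and Huh7. They are SPTLC1, SPTLC2, CERS2, CERS4, CERS5, CERS6, DEGS1, SMPD1, ASAH1 and UGCG, 10 of 20293 genes listed for either line. Each symbol was listed once in each line, and all 10 genes passed the filter on low counts in both. RNA-Seq was run on HepG2 cells with UBL5 siRNA, HepG2 cells with Ctrl-siRNA (a non-target siRNA), Huh7 cells with UBL5 siRNA and Huh7 cells with Ctrl-siRNA, 3 libraries per group and 12 in all. The cells were labelled wild type, were kept in low glucose medium, received the siRNA with the transfection reagent Lipofectamine RNAiMAX, and were collected at 52 h according to the labels. A shorter time stands in the paper, and which is right is not known. The KD was therefore transient and done in 1 culture model per line, and since the labels leave it unsaid if a group's 3 libraries were transfected separately, the p-values measure only the spread between these libraries. UBL5 is a small ubiquitin-like protein that binds spliceosome proteins, and the comparison asks how its loss changes gene expression. The paper names a single UBL5 siRNA, so effects of this siRNA on other targets cannot be told apart from those of UBL5 loss.

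Ceramide is a fatty acid joined to a sphingoid base, and it is the branch point of sphingolipid metabolism. In the de novo route at the endoplasmic reticulum, serine palmitoyltransferase joins serine and palmitoyl-CoA, a ceramide synthase adds a fatty acyl chain, and dihydroceramide desaturase puts in the double bond that turns dihydroceramide into ceramide. Ceramide is also released from sphingomyelin by sphingomyelinases, is broken down to sphingosine by ceramidases, or is carried to the Golgi and made into sphingomyelin or glucosylceramide. Hepatocytes express mostly the ceramide synthase of very long acyl chains, CERS2, and ceramide is widely studied in the liver for its links to insulin action and cell death. Transcript levels do not show enzyme activity or lipid amount, which were not measured in these libraries.

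Each library held between 19469574 and 29744471 counts assigned to genes. Levels are given as CPM, the count of a gene scaled to the total of its library, with totals adjusted by the trimmed mean of M values (TMM) over the 12 libraries. UBL5 itself had 7.19, 4.48 and 2.97 CPM in the UBL5 siRNA libraries of HepG2, against 62.6, 57.7 and 61.8 CPM with Ctrl-siRNA. In Huh7 it had 6.20, 6.44 and 5.59 CPM with UBL5 siRNA, against 67.0, 69.5 and 65.0 CPM with Ctrl-siRNA. The KD was thus seen in all 6 libraries labelled UBL5 siRNA. Replicate spread was wider in HepG2, where the biological coefficient of variation was 0.189, than in Huh7, where it was 0.0663. The third Ctrl-siRNA library of HepG2 differed from the rest in having 1773 listed genes at a count of 0, where no other HepG2 library had more than 233. The columns of replicate 3 of both HepG2 groups are also named without the suffix that all other columns carry, and whether they were sequenced or processed apart from the rest is not given in the sources used here. Mitochondrial transcripts took 2.75 to 3.61% of the counts with UBL5 siRNA and 1.91 to 2.35% with Ctrl-siRNA in HepG2, and 2.66 to 3.72% against 2.46 to 3.30% in Huh7, and their part in the results was not tested. All 10 hepatocyte markers looked up, ALB and HNF4A among them, were at 1 CPM or more on average in every group. Of the leukocyte markers, PTPRC, CD3E and CD68 were listed in neither line, although the summed level of the list moved with the siRNA, at 973 to 1220 CPM of the library total with UBL5 siRNA against 1690 to 2220 with Ctrl-siRNA in HepG2 and at 328 to 345 against 578 to 593 in Huh7. The endothelial list summed to at most 6.84 CPM in any library, with KDR, TEK and VWF not listed, and the fibroblast list summed to 5.85 to 16.9 with UBL5 siRNA against 6.19 to 12.2 with Ctrl-siRNA in HepG2 and to 87.9 to 98.6 against 70.3 to 76.6 in Huh7.

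With UBL5 siRNA, genes among the 10 were called in both directions, and most of those called in both lines moved the same way. The genes of acid sphingomyelinase (SMPD1) and dihydroceramide desaturase (DEGS1) fell in both lines. The genes of glucosylceramide synthase (UGCG), of the ceramide synthases CERS2 and CERS4 and of the SPTLC1 subunit rose in both. The acid ceramidase gene ASAH1 was called in neither line. In HepG2, 4 of the 10 genes were higher and 3 lower at an adjusted p under 0.05 (edgeR quasi-likelihood test, adjusted over all genes tested), which is 70.0% of them, where 36.7% of the 15755 genes tested were called, 16.5% higher and 20.1% lower. In Huh7, 90.0% of the genes were called, 5 of them higher and 4 lower, where 71.3% of 16965 genes were called, 34.9% higher and 36.4% lower. The share in Huh7 is thus not far from that of all genes. Because the 10 genes were chosen with earlier results of these data known, the higher share in HepG2 cannot be weighed fairly against all genes. The median log2 fold change of the 10 genes was 0.02 in HepG2 and 0.12 in Huh7, beside 0.01 and -0.01 for all genes. Of the 10, 6 were called in both lines in the same direction and 1, SPTLC2, in opposite directions. The 3 values of each siRNA did not overlap for 7 of the 10 genes in HepG2 and for 9 in Huh7, where 53.0% and 73.9% of all genes tested did not overlap. The count in HepG2 depended on single libraries, with 2 higher and 3 lower without UBL5 siRNA replicate 1 and 2 higher and 2 lower without UBL5 siRNA replicate 2. Without replicate 3 of both HepG2 groups, an alternative chosen after seeing the data, 4 were higher and 2 lower.

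**Figure D1:**
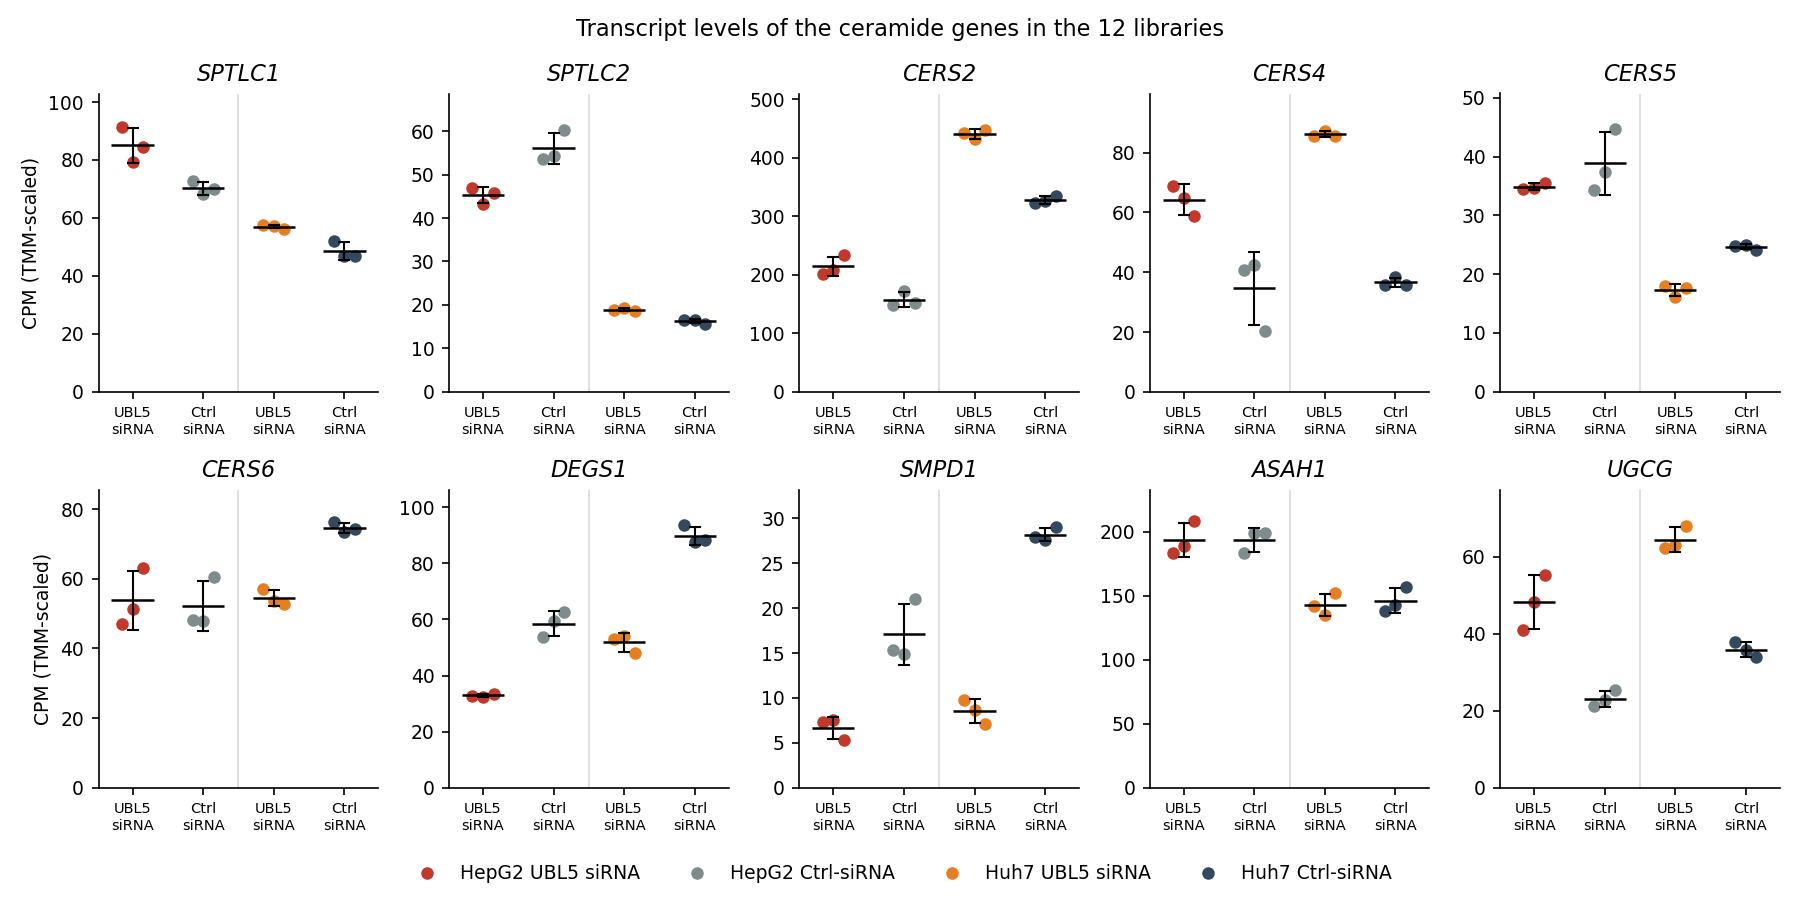
Level of each of the 10 genes in the 12 libraries, in CPM scaled by TMM on the vertical axis, by line and siRNA on the horizontal axis. Points are libraries, horizontal bars the mean and whiskers the SD (n = 3 per group). SMPD1 lies between 5.27 and 7.49 CPM with UBL5 siRNA in HepG2 and between 14.9 and 21.0 CPM with Ctrl-siRNA, and ASAH1 overlaps between the siRNAs in both lines.

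**Figure D2:**
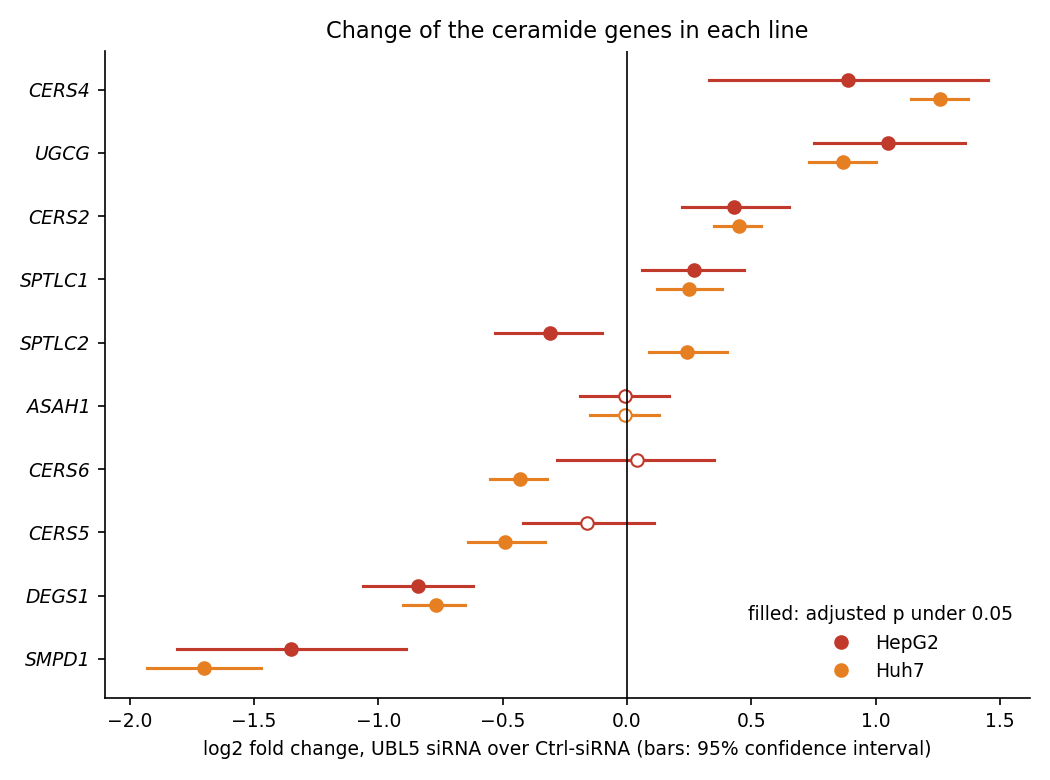
Log2 fold change of each gene (UBL5 siRNA over Ctrl-siRNA) on the horizontal axis, with its 95% confidence interval from edgeR, for HepG2 (upper of each pair) and Huh7 (lower). Filled points passed an adjusted p of 0.05, and SPTLC2 is the gene with a filled point on either side of 0 (-0.31 in HepG2 and 0.24 in Huh7).

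The genes of 2 subunits of serine palmitoyltransferase, the first and rate-limiting step, both rose in Huh7, while in HepG2 SPTLC1 rose and SPTLC2 fell. SPTLC1 (ENSG00000090054, chromosome 9 from 92000087 to 92115413 of GRCh38, minus strand, 15 exons) encodes the subunit that all forms of the enzyme share. It had 91.3, 79.3 and 84.6 CPM with UBL5 siRNA in HepG2, against 72.6, 68.1 and 70.1 CPM with Ctrl-siRNA. In Huh7, it had 57.4, 57.2 and 56.3 CPM with UBL5 siRNA, against 52.0, 46.8 and 46.8 CPM with Ctrl-siRNA. Every UBL5 siRNA library lay above every Ctrl-siRNA library of its line. The log2 fold change was 0.27 (SE 0.0907, adjusted p = 0.0456, edgeR) in HepG2 and 0.25 (SE 0.0580, adjusted p = 0.00214) in Huh7. The call in HepG2 did not hold without any 1 of the 6 libraries (adjusted p from 0.0534 without UBL5 siRNA replicate 2 to 0.144 without Ctrl-siRNA replicate 2) or with library totals in place of TMM (0.0979).

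SPTLC2 (ENSG00000100596, chromosome 14 from 77505997 to 77616637, minus strand, 12 exons) encodes a catalytic subunit that pairs with SPTLC1. In HepG2, it had 46.9, 43.2 and 45.8 CPM with UBL5 siRNA, against 53.7, 54.2 and 60.2 CPM with Ctrl-siRNA, so that all UBL5 siRNA libraries were below the Ctrl-siRNA libraries. In Huh7, its level was 18.8, 19.3 and 18.6 CPM with UBL5 siRNA, against 16.5, 16.5 and 15.7 CPM with Ctrl-siRNA, and the order was the other way round. On the log2 scale the change was -0.31 (SE 0.0938, adjusted p = 0.0293, edgeR) in HepG2 and 0.24 (SE 0.0711, adjusted p = 0.00925) in Huh7. The test of the difference (HepG2 minus Huh7) gave -0.53 (SE 0.111, 95% interval -0.77 to -0.29, adjusted p = 0.00463) and stayed called under all 18 alternatives, from -0.56 to -0.47. Within HepG2 alone, the call was lost without Ctrl-siRNA replicate 1 (adjusted p = 0.0604), 2 (0.0677) or 3 (0.0537), without UBL5 siRNA replicate 2 (0.165) or 3 (0.0903), and without replicate 3 of both groups (0.0686). In Huh7, it was lost with library totals in place of TMM (0.16, adjusted p = 0.0653). Per kilobase of exon, SPTLC1 stood above SPTLC2 in every library. The ratio of the 2 levels was 2.18 ± 0.07 with UBL5 siRNA and 1.46 ± 0.11 with Ctrl-siRNA in HepG2, and 3.50 ± 0.0529 against 3.47 ± 0.186 in Huh7 (SD, n = 3 each). The ratio thus overlapped between the siRNAs in Huh7 and did not in HepG2. SPTLC3, an alternative catalytic subunit gene that fell in both lines, is not part of this ratio.

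Since SPTLC2 was the gene that moved in opposite directions, the bases before its start site are printed beside those of SMPD1, DEGS1 and UGCG, which changed most among the genes with a sequence in the table. Of the 10 genes, 7 matched the RefSeq table of start sites (GRCh38.p14), and CERS2, CERS4 and ASAH1 did not. Up to 250 bases upstream of the start are given on the strand of the gene, without bases that GENCODE annotates as exon. Capitals mark the GC box, GGGCGG, which reads CCGCCC on the other strand, and the CCAAT box, which reads ATTGG on the other strand. The SMPD1 window of 216 bases is chr11:6390224-6390439 (plus strand), that of DEGS1 chr1:224182990-224183239 (plus), the first of 2 start sites that the table gives for this gene, that of UGCG chr9:111896564-111896813 (plus) and that of SPTLC2 chr14:77616638-77616887 (minus).
SMPD1: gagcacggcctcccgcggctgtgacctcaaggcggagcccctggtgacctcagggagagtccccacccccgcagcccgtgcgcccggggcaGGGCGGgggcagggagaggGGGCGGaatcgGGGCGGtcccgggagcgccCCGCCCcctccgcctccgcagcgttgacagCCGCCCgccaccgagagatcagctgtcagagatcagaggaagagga
DEGS1: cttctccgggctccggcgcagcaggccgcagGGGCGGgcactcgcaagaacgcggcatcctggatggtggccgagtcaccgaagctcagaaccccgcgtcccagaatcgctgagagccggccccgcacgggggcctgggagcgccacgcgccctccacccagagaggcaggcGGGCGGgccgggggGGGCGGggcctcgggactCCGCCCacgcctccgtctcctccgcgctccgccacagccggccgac
UGCG: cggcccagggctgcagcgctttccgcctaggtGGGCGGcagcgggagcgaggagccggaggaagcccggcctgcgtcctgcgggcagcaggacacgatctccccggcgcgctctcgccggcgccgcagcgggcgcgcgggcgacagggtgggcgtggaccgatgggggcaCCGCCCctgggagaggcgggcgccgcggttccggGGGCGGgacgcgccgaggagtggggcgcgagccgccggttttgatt
SPTLC2: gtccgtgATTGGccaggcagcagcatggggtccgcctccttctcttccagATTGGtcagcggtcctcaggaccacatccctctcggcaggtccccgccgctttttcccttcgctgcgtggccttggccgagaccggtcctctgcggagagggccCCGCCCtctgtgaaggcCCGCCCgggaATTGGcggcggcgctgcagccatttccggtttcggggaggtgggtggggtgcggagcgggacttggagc
The GC box was found 5 times for SMPD1, 4 times in the printed window of DEGS1, 3 times for UGCG and 2 times for SPTLC2, and 42.6% of the 35116 windows of 250 bases in the table hold at least 1. The CCAAT box was found 3 times for SPTLC2 and 0 times for the other three, and 32.0% of all windows hold it. Among the windows not printed, CERS6 holds it 1 time and SPTLC1 and CERS5 0 times. The printed windows are 68.4 to 78.4% G and C, beside a median of 58.0% over all windows. Whether any motif bears on the changes was not tested. None of the 4 holds the E-box CACGTG, which is in 6.34% of all windows. The TATA box, searched as TATAAA on both strands, is in 10.7% of all windows and in none of the 4. The window of the other DEGS1 start site, chr1:224183430-224183674, is not printed and holds 0 matches to each of the 4 motifs, so for DEGS1 the count depends on the start site taken.

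Among the 4 ceramide synthases followed here, CERS2 and CERS4 were higher with UBL5 siRNA in both lines. CERS5 and CERS6 were lower in Huh7 and not called in HepG2. CERS2 (ENSG00000143418, chromosome 1 from 150960583 to 150975003, minus strand, 11 exons), the synthase of very long chain ceramides, had 202, 208 and 233 CPM with UBL5 siRNA in HepG2, against 149, 172 and 152 CPM with Ctrl-siRNA. In Huh7 it had 443, 432 and 447 CPM with UBL5 siRNA, against 322, 327 and 335 CPM with Ctrl-siRNA. The groups did not overlap in either line, and the log2 fold changes were 0.43 (SE 0.0928, adjusted p = 0.00667, edgeR) in HepG2 and 0.45 (SE 0.0429, adjusted p = 2.27e-06) in Huh7. The 2 lines differed by 0.02 (95% interval -0.20 to 0.23, adjusted p = 0.935). CERS2 shares 37.2% of its exon bases with genes on the other strand, SETDB1 among them, and the strand setting of the counting is not given in the sources used here. SETDB1, a histone methyltransferase gene, had log2 fold changes of 0.46 (SE 0.0978, adjusted p = 0.0067) in HepG2 and 0.42 (SE 0.0485, adjusted p = 1.1e-05) in Huh7, and if strand was not used, reads of the 2 genes in the shared bases cannot be told apart.

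CERS4 (ENSG00000090661, chromosome 19 from 8206736 to 8262421, plus strand, 12 exons) encodes a synthase of long chain ceramides. It had 69.0, 65.0 and 58.7 CPM with UBL5 siRNA in HepG2, against 40.9, 42.4 and 20.4 CPM with Ctrl-siRNA, where replicate 3 was far below the other two. In Huh7, the 3 values with UBL5 siRNA were 85.5, 87.4 and 85.7 CPM, against 35.7, 38.4 and 35.9 CPM with Ctrl-siRNA. CERS4 rose by 0.89 on the log2 scale (SE 0.247, adjusted p = 0.0213, edgeR) in HepG2, a 1.85-fold higher level, and 1.26 (SE 0.0527, adjusted p = 3.88e-09) in Huh7, a 2.39-fold higher level. Without Ctrl-siRNA replicate 3, it was 0.61 (adjusted p = 0.00213) in HepG2, and the call was lost without UBL5 siRNA replicate 1 (0.84, adjusted p = 0.0639) or 2 (0.91, adjusted p = 0.055). The difference between the lines was -0.33 (95% interval -0.92 to 0.25, adjusted p = 0.424) over all libraries and -0.61 (adjusted p = 0.00104) without Ctrl-siRNA replicate 3 of HepG2.

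CERS5 (ENSG00000139624, chromosome 12 from 50129289 to 50167533, minus strand, 10 exons) encodes a synthase that prefers palmitoyl chains. It was at 34.5, 34.7 and 35.5 CPM with UBL5 siRNA in HepG2, against 34.4, 37.4 and 44.7 CPM with Ctrl-siRNA, and the groups overlapped. Its level in Huh7 was 18.0, 16.2 and 17.7 CPM with UBL5 siRNA, against 24.8, 25.0 and 24.2 CPM with Ctrl-siRNA, with no overlap. For CERS5 the log2 fold change was -0.16 (95% interval -0.42 to 0.11, adjusted p = 0.325, edgeR) in HepG2 and -0.49 (SE 0.0720, adjusted p = 8.39e-05) in Huh7. The difference between the lines was 0.35 (adjusted p = 0.0903), and without Ctrl-siRNA replicate 3 of HepG2 it was 0.47 (adjusted p = 0.00797).

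CERS6 (ENSG00000172292, chromosome 2 from 168456249 to 168775134, plus strand, 10 exons), which also makes ceramides with palmitoyl chains, had 46.9, 51.3 and 63.2 CPM with UBL5 siRNA in HepG2, against 48.2, 47.8 and 60.5 CPM with Ctrl-siRNA. Replicate 3 was the highest of both HepG2 groups. In Huh7, the level was 57.0, 53.5 and 52.8 CPM with UBL5 siRNA, against 76.3, 73.4 and 74.3 CPM with Ctrl-siRNA. UBL5 siRNA gave CERS6 a log2 fold change of 0.04 (95% interval -0.28 to 0.35, adjusted p = 0.862, edgeR) in HepG2 and -0.43 (SE 0.0528, adjusted p = 1.67e-05) in Huh7. The difference between the lines was 0.50 (SE 0.158, adjusted p = 0.0382), and this call was lost without any 1 of 10 of the 12 libraries, all but Ctrl-siRNA replicate 3 and UBL5 siRNA replicate 1 of HepG2 (adjusted p from 0.051 to 0.0898, difference from 0.37 to 0.54). CERS6 shares 43.8% of its exon bases with the antisense gene CERS6-AS1, which is listed in neither line.

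Seen as a family and compared per kilobase of exon, CERS2 made up most of the 4 ceramide synthase transcripts in every library, from 59.0 to 75.7%. CERS4 took 21.2 ± 2.65% with UBL5 siRNA and 15.1 ± 4.96% with Ctrl-siRNA in HepG2 (SD, n = 3 each), and its lowest share, 9.43%, was that of Ctrl-siRNA replicate 3. In Huh7, the share of CERS4 was 16.7 ± 0.404% with UBL5 siRNA and 9.58 ± 0.379% with Ctrl-siRNA (SD, n = 3 each). CERS6 held 6.27 ± 0.240% with UBL5 siRNA and 11.6 ± 0.379% with Ctrl-siRNA in Huh7, and CERS5 held 2.02 ± 0.0889% against 3.86 ± 0.108%. The share of CERS2 in Huh7 was 74.9 ± 0.416% with UBL5 siRNA and 75.0 ± 0.608% with Ctrl-siRNA, so the gain of CERS4 stood beside smaller shares of CERS5 and CERS6 there. In HepG2, CERS5 held 6.88 ± 0.231% with UBL5 siRNA and 10.3 ± 1.79% with Ctrl-siRNA, and CERS6 10.4 ± 1.09% and 13.7 ± 2.58%. These shares are a description with no test, and they depend on the length used: with the longest annotated transcript in place of all exon bases, CERS5 stood above CERS6 in HepG2. CERS1, a gene of the neighbouring lists at 1.37 to 6.13 CPM, was left out of the shares. Its log2 fold change was -0.45 (adjusted p = 0.451, edgeR) in HepG2 and 0.73 (adjusted p = 0.00198) in Huh7. CERS1 shares 68.5% of its exon bases with GDF1 on the same strand.

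**Figure D3:**
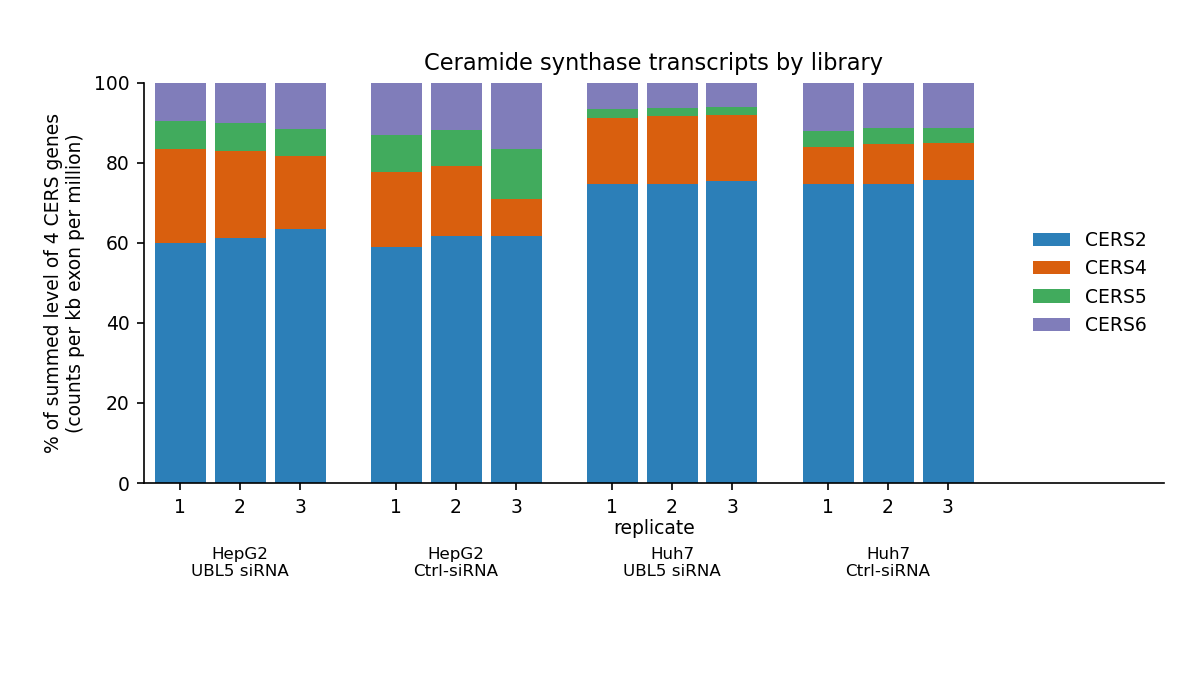
Share of each ceramide synthase in the summed level of CERS2, CERS4, CERS5 and CERS6 (vertical axis, in % of CPM per kilobase of exon), 1 bar per library, by line, siRNA and replicate. CERS2 is the largest part in all 12 bars, and CERS4 holds 16.7% on average with UBL5 siRNA in Huh7 and 9.58% with Ctrl-siRNA.

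DEGS1 (ENSG00000143753, chromosome 1 from 224175756 to 224193441, plus strand, 3 exons) encodes the desaturase of the last de novo step, and it fell by nearly the same amount in both lines. It had 32.8, 32.5 and 33.4 CPM with UBL5 siRNA in HepG2, against 53.7, 59.3 and 62.6 CPM with Ctrl-siRNA. In Huh7, the values were 53.2, 54.1 and 48.1 CPM with UBL5 siRNA, against 93.6, 87.7 and 88.3 CPM with Ctrl-siRNA. The groups were far apart in both lines, and the level with UBL5 siRNA in Huh7 was close to that of HepG2 with Ctrl-siRNA. The log2 fold change was -0.84 (SE 0.0973, adjusted p = 0.000397, edgeR) in HepG2 and -0.77 (SE 0.0582, adjusted p = 3.05e-07) in Huh7, and it stayed called under all 13 alternatives in HepG2 (-0.89 to -0.78) and all 12 in Huh7 (-0.86 to -0.71). The difference between the lines was -0.04 (95% interval -0.27 to 0.20, adjusted p = 0.853).

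SMPD1 (ENSG00000166311, chromosome 11 from 6390440 to 6394998, plus strand, 6 exons) encodes lysosomal acid sphingomyelinase, which releases ceramide from sphingomyelin, and its fall was the largest among the 10 genes in both lines. With UBL5 siRNA it had 7.29, 7.49 and 5.27 CPM in HepG2 (158, 174 and 96 counts), against 15.3, 14.9 and 21.0 CPM with Ctrl-siRNA (385, 341 and 600 counts). In Huh7, it had 9.80, 8.70 and 7.11 CPM with UBL5 siRNA, against 27.9, 27.6 and 29 CPM with Ctrl-siRNA. The log2 fold change was -1.35 (SE 0.203, adjusted p = 0.00126, edgeR) in HepG2, to 0.392 of the Ctrl-siRNA level, and -1.70 (SE 0.104, adjusted p = 5.85e-08) in Huh7, to 0.308 of it. Replicate 3 of HepG2 was the lowest with UBL5 siRNA and the highest with Ctrl-siRNA, and without replicate 3 of both groups the difference between the lines was 0.70 (adjusted p = 0.00762), beside 0.38 (95% interval -0.14 to 0.89, adjusted p = 0.296) with all libraries. The fall itself stayed called under all 13 alternatives in HepG2, from -1.44 to -1.02.

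ASAH1 (ENSG00000104763, chromosome 8 from 18055992 to 18084998, minus strand, 14 exons) encodes lysosomal acid ceramidase, which splits ceramide into sphingosine and a fatty acid. It had 183, 189 and 208 CPM with UBL5 siRNA in HepG2, against 183, 199 and 199 CPM with Ctrl-siRNA. In Huh7, the values were 142, 135 and 152 CPM with UBL5 siRNA, against 138, 143 and 157 CPM with Ctrl-siRNA, and the groups overlapped in both lines. The log2 fold change was -0.01 in both, with a 95% interval of -0.19 to 0.17 in HepG2 (adjusted p = 0.939, edgeR) and -0.15 to 0.13 in Huh7 (adjusted p = 0.925). Both lysosomal enzymes of ceramide turnover were thus expressed, and the one that makes ceramide fell while the one that degrades it was not called.

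UGCG (ENSG00000148154, chromosome 9 from 111896814 to 111935369, plus strand, 9 exons) encodes glucosylceramide synthase, which takes ceramide into glycosphingolipids, and it rose in both lines. It had 41.1, 48.3 and 55.3 CPM with UBL5 siRNA in HepG2, against 21.2, 22.7 and 25.3 CPM with Ctrl-siRNA. In Huh7, it had 62.3, 63.1 and 68.1 CPM with UBL5 siRNA, against 37.9, 35.7 and 34 CPM with Ctrl-siRNA. The lowest library with UBL5 siRNA was well above the highest with Ctrl-siRNA in each line. The log2 fold change was 1.05 (SE 0.132, adjusted p = 0.000555, edgeR) in HepG2, a 2.08-fold higher level, and 0.87 (SE 0.0616, adjusted p = 1.89e-07) in Huh7, a 1.83-fold higher level. It stayed called under every alternative run in each line, and the difference between the lines was 0.21 (95% interval -0.11 to 0.54, adjusted p = 0.351).

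The 2 lines differed in the starting levels of most of these genes. With Ctrl-siRNA, 4 of the 10 genes were higher in HepG2 than in Huh7 and 5 lower, where 63.7% of the 15668 genes tested differed, 31.7% higher and 32.0% lower (edgeR, all 12 libraries in 1 fit). SPTLC2 differed most, at 53.7, 54.2 and 60.2 CPM in HepG2 against 16.5, 16.5 and 15.7 CPM in Huh7, a log2 difference of 1.79 (SE 0.0802, adjusted p = 2.49e-10). SPTLC1 (0.53), CERS5 (0.66) and ASAH1 (0.41) were also higher in HepG2. CERS2 (-1.06), SMPD1 (-0.72), UGCG (-0.63), DEGS1 (-0.62) and CERS6 (-0.52) were lower in HepG2. These 9 genes kept their direction and call under all 18 alternatives. CERS4 was at -0.09 (95% interval -0.51 to 0.33, adjusted p = 0.708), and without replicate 3 of both HepG2 groups it was at 0.18 (adjusted p = 0.0264), the opposite direction. Per kilobase of exon, CERS2 was the highest of the 10 genes with Ctrl-siRNA in both lines, at 34 ± 2.74 CPM per kilobase in HepG2 and 70.7 ± 1.52 in Huh7 (SD, n = 3 each), followed by DEGS1 at 24 ± 1.82 and 36.8 ± 1.33. SPTLC2 was the lowest in both lines, at 4.56 ± 0.295 in HepG2 and 1.32 ± 0.0346 in Huh7, although in HepG2 its neighbour in the order, UGCG, lay within its spread, at 5.06 ± 0.450. This order depends on the length used: with the longest annotated transcript, ASAH1 at 33.8 ± 1.62 stood above DEGS1 at 28.8 ± 2.23 and UGCG at 5.83 ± 0.521 below SPTLC2 at 6.97 ± 0.448 with Ctrl-siRNA in HepG2. Per kilobase of all exon bases and with UBL5 siRNA, SMPD1 was the lowest in HepG2, at 2.44 ± 0.449, and SPTLC2 in Huh7, at 1.54 ± 0.0306.

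The test of the difference in the UBL5 siRNA effect between the lines called 2 of the 10 genes, 1 higher and 1 lower, where 21.5% of all genes tested were called, 9.88% higher and 11.7% lower. These were SPTLC2, for which the effect in HepG2 was the lower, and CERS6, for which the effect in HepG2 was the higher. For ASAH1, CERS2, DEGS1 and SPTLC1 the 95% interval of the difference lay within 0.27 of 0 on the log2 scale. For CERS4, CERS5, SMPD1 and UGCG it was wider, between -0.92 and 0.89 in all.

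The genes around these steps were read from 5 lists with 56 genes in all. In HepG2, 8 of the 49 list genes tested were higher and 8 lower with UBL5 siRNA, which is 32.7% of them beside 36.7% of all genes. Among the 51 tested in Huh7, 17 were higher and 20 lower, or 72.5% beside 71.3% of all genes. Over the 5 lists, genes were thus called about as often as all genes in each line.

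In the list of de novo synthesis, which holds its regulators and also ALDH3A2, 1 of 9 genes tested was higher and 1 lower in HepG2, and 4 were higher and 3 lower in Huh7, with median log2 fold changes of -0.06 and 0.05. SPTLC3, an alternative catalytic subunit of serine palmitoyltransferase, fell in both lines, to 30.9 ± 8.97 CPM with UBL5 siRNA against 82.5 ± 5.98 CPM with Ctrl-siRNA in HepG2 (SD, n = 3 each), a log2 fold change of -1.42 (adjusted p = 0.00068, edgeR). In Huh7, it was at 17.3 ± 1.36 CPM against 33.1 ± 0.693 CPM (SD, n = 3 each), a log2 fold change of -0.92 (adjusted p = 5.08e-07). ORMDL3, one of the proteins that restrain this enzyme, rose in Huh7 by 0.68 (adjusted p = 2.42e-07) and was at 0.16 (adjusted p = 0.243) in HepG2, with a difference of -0.49 (adjusted p = 0.00728). Its relative ORMDL2 fell in Huh7 by 0.72 on the log2 scale (adjusted p = 2.09e-05) and was at -0.31 (adjusted p = 0.148) in HepG2. ORMDL2 shares 44% of its exon bases with genes on the other strand. ORMDL1, of the same family, rose in both lines, by 0.44 (adjusted p = 0.0307, edgeR) in HepG2 and 0.17 (adjusted p = 0.0241) in Huh7. ALDH3A2, which oxidizes the fatty aldehyde left by sphingosine 1-phosphate breakdown, rose in Huh7 (0.26, adjusted p = 0.000258) and was at 0.17 in HepG2 (adjusted p = 0.121, and 0.0373 by DESeq2). CERS3, DEGS2 and FA2H are listed in neither line.

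Both sphingomyelin synthase genes fell in both lines. SGMS1, the Golgi enzyme, was at 12.4 ± 1.99 CPM with UBL5 siRNA against 28.9 ± 3.53 CPM with Ctrl-siRNA in HepG2 (SD, n = 3 each), a log2 fold change of -1.23 (adjusted p = 0.000531, edgeR). In Huh7, it was at 20.3 ± 1.75 CPM against 41.8 ± 3.42 CPM (SD, n = 3 each), or -1.01 (adjusted p = 8.15e-07). SGMS2, found mostly at the plasma membrane, had few counts and was at 3.27 ± 0.231 CPM against 5.83 ± 1.5 CPM in HepG2 (SD, n = 3 each), or -0.84 (adjusted p = 0.0326), a call lost without Ctrl-siRNA replicate 1 (0.122) or 2 (0.108) or any 1 of the UBL5 siRNA libraries (0.0853 to 0.0953). Its fall in Huh7 was deeper, to 1.23 ± 0.235 CPM against 7.65 ± 0.427 CPM (SD, n = 3 each), or -2.61 (adjusted p = 5.11e-08), and the difference between the lines was 1.80 (adjusted p = 0.00151). Of the 10 genes of sphingomyelin synthesis and breakdown, 0 were higher and 2 lower in HepG2 (0 higher also at an unadjusted p under 0.05 and by DESeq2), and 5 were higher and 2 lower in Huh7. Among them, SMPD2, a neutral sphingomyelinase gene that shares 21.8% of its exon bases with PPIL6, rose in Huh7 (0.86, adjusted p = 1.9e-06) and was at -0.16 (adjusted p = 0.606) in HepG2. NSMAF, an adaptor of neutral sphingomyelinase, rose in Huh7 by 0.28 (adjusted p = 0.00333) and was at 0.04 (adjusted p = 0.746) in HepG2.

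In the list of ceramide breakdown and sphingosine 1-phosphate, 2 of 11 genes tested were higher and 2 lower in HepG2, and 4 of 11 were higher and 3 lower in Huh7, with medians of -0.09 and 0.14. SGPL1, the lyase that ends the pathway, rose in both lines, by 0.40 (adjusted p = 0.00805, edgeR) in HepG2 and 0.46 (adjusted p = 3.42e-06) in Huh7. CERK, the ceramide kinase gene, went opposite ways, to 77.4 ± 12 CPM with UBL5 siRNA against 110 ± 7.02 CPM with Ctrl-siRNA in HepG2 and to 111 ± 8.72 CPM against 78.3 ± 6.82 CPM in Huh7 (SD, n = 3 each). Its log2 fold changes were -0.52 (adjusted p = 0.0113) and 0.52 (adjusted p = 3.61e-05). SPHK1, a sphingosine kinase gene, rose in Huh7 by 0.98 (adjusted p = 4.15e-07) and was at -0.09 (adjusted p = 0.733) in HepG2. SGPP1, a phosphatase of sphingosine 1-phosphate, fell in Huh7 by 0.68 on the log2 scale (adjusted p = 0.000273) and was at -0.20 (adjusted p = 0.182) in HepG2. ACER1 is listed in neither line, SGPP2 did not pass the filter in HepG2, and MFSD2B did not in Huh7.

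In the list of glycosphingolipid synthesis and transfer, which holds both the glucosylceramide and the galactosylceramide branch, 1 of 8 genes tested was higher and 2 lower in HepG2, and 1 of 9 was higher and 4 lower in Huh7. Lactosylceramide synthase, the step next after UGCG, is encoded on this list by B4GALT5 and B4GALT6. B4GALT6 was not called, at -0.39 (adjusted p = 0.144, edgeR) in HepG2 and -0.13 (adjusted p = 0.53) in Huh7. B4GALT5 rose in both lines. It had 245 ± 29.5 CPM with UBL5 siRNA against 123 ± 7.02 CPM with Ctrl-siRNA in HepG2 (SD, n = 3 each), a log2 fold change of 0.99 (adjusted p = 0.000286, edgeR), and 419 ± 9.50 CPM against 157 ± 4.73 CPM in Huh7 (SD, n = 3 each), or 1.43 (adjusted p = 6.24e-10). B4GALNT1, a ganglioside synthase gene that shares 27.1% of its exon bases with other genes, fell in Huh7 to 14.6 ± 0.569 CPM against 51.9 ± 3.98 CPM (SD, n = 3 each), or -1.80 (adjusted p = 4.5e-09), and was at -0.21 (adjusted p = 0.39) in HepG2. GLTP, which transfers glycolipids, fell by 0.74 on the log2 scale in Huh7 (adjusted p = 3.1e-06) and by 0.35 in HepG2 (adjusted p = 0.0387), a call lost without any 1 HepG2 library other than Ctrl-siRNA replicate 3 (0.0751 to 0.149) and with DESeq2 (0.052). UGT8, the galactosylceramide synthase gene, fell in Huh7 by 1.05 (adjusted p = 1.55e-05). It did not pass the filter in HepG2, where it had at most 12 counts in any library.

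Among the genes of lysosomal glycosphingolipid breakdown, 4 of 11 tested were higher and 1 lower in HepG2, and 3 of 12 were higher and 8 lower in Huh7, with median log2 fold changes of 0.18 and -0.19. NEU1, a lysosomal sialidase gene, rose in both lines, to 634 ± 28.3 CPM with UBL5 siRNA against 364 ± 30.7 CPM with Ctrl-siRNA in HepG2 (SD, n = 3 each), or 0.80 (adjusted p = 0.000258, edgeR), and by 0.49 (adjusted p = 1.59e-06) in Huh7. ARSA, the arylsulfatase A gene, fell in Huh7 to 13.3 ± 0.557 CPM against 40.0 ± 6.78 CPM (SD, n = 3 each), or -1.56 (adjusted p = 2.95e-07). In HepG2, ARSA was at -0.82 (adjusted p = 0.0356), a call lost without any 1 library other than Ctrl-siRNA replicate 3 (0.05 to 0.122). HEXA, a hexosaminidase subunit gene, fell in Huh7 by 0.54 on the log2 scale (adjusted p = 5.2e-06) and was at -0.09 (adjusted p = 0.544) in HepG2. The test of the difference between the lines called the UBL5 siRNA effect higher in HepG2 than in Huh7 for 6 of 11 genes of this list. It was called lower for 0 (0 lower also at an unadjusted p under 0.05 and by DESeq2), where 9.88% of all genes were called higher and 11.7% lower. The lists were chosen with earlier results of these data known, so this count cannot be weighed fairly against all genes. GALC, which encodes galactosylceramidase, is listed for Huh7 only, where it had 618, 666 and 679 counts with UBL5 siRNA against 2602, 1997 and 1867 counts with Ctrl-siRNA, a log2 fold change of -1.53 (adjusted p = 1.6e-09).

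**Figure D4:**
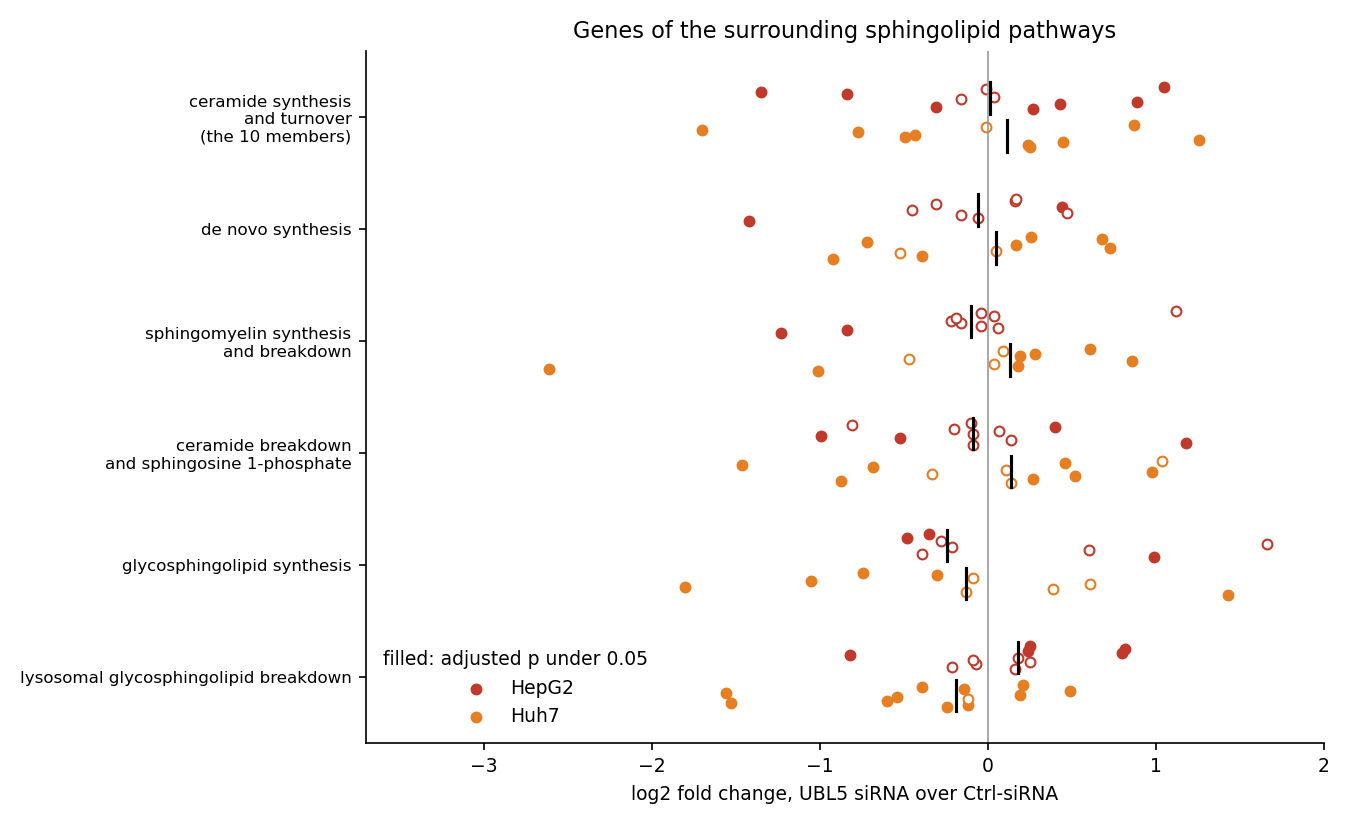
Log2 fold change (UBL5 siRNA over Ctrl-siRNA) on the horizontal axis for the 10 ceramide genes and the genes of 5 neighbouring lists, HepG2 above Huh7 in each row. Each point is a gene, filled where the adjusted p was under 0.05, and black ticks are the medians, which lie between -0.24 and 0.18 in all rows.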

How the data were processed

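The data are gene counts from RNA-Seq, with 3 libraries for each siRNA (UBL5 siRNA or Ctrl-siRNA) and line. According to the paper and the submitters' processing notes, polyadenylated RNA was made into stranded libraries and sequenced as single reads, which the authors demultiplexed with bcl2fastq, checked with FastQC 0.11.9, aligned to GRCh38 with STAR 2.7.6a and counted per gene with featureCounts. The gene annotation and strand setting are not given in the sources used here. The deposited tables hold raw counts per library and list 17640 genes for HepG2 and 18434 for Huh7. Beside the counts, the deposited tables carry the authors' DESeq2 1.30.0 results (a score per gene, namely the mean normalized count and the Wald statistic, the log2 fold change with its error, the p-value and the adjusted p-value), which were not used. All 12 count columns were matched to samples and 0 were left over.

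Counts were filtered with filterByExpr (minimum count 10, minimum total 15), scaled by TMM and tested within each line with the quasi-likelihood test of edgeR 4.0.16 (R 4.3.3), with Benjamini-Hochberg adjustment over all genes and a threshold of 0.05. The difference between the lines and the comparison of the Ctrl-siRNA groups came from 1 fit over 12 libraries (15668 genes). DESeq2 1.42.0, limma 3.58.1, Python 3.11.15, pandas 2.3.3, scipy 1.17.1 and matplotlib 3.10.9 were used as well. Gene models, lengths and overlaps are from GENCODE 44. Alternatives were DESeq2, other size factors, library totals, no filter, each library left out, the replicate number as a block and, within each line, 1 fit over 12 libraries. Intervals are 95% intervals of the fits. The 10 genes had 96 counts or more in every library, the fewest for SMPD1, where counting error adds most to the spread. The steps were tested on simulated data.

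The 10 genes and the lists were chosen with earlier results of these data known. List genes are named as up to 4 called genes per list, by lowest adjusted p over both lines, with genes not listed or not tested, and for each of the 10 genes called in both lines the gene of most similar profile. ACER2, GM2A, PSAP, ORMDL1, B4GALT6 and CERS1 were chosen after their values were seen. No 2 libraries were alike within sampling noise. The replicate numbers were checked for pairing. Over genes of at least 10 CPM, deviations of same-numbered libraries correlated at 0.408, 0.318 and 0.336 in HepG2, and at 0.435, 0.062 and 0.561 in Huh7, while over all genes tested they were 0.124, 0.11 and 0.0729 in HepG2 and 0.161, 0.0155 and 0.212 in Huh7. The labels name no shared batch, and every pair passed 0.1 only in HepG2 and only over the more expressed genes.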

Additional observations from a re-analysis of the deposited data

Results flagged for a closer look

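These genes had a UBL5 siRNA effect that differed between the lines by the edgeR interaction test over all 12 libraries. The difference is HepG2 minus Huh7 on the log2 scale, and 21.5% of all genes tested passed. SPTLC2 had a difference of -0.53 (SE 0.111, adjusted p = 0.00463), lower with UBL5 siRNA in 3 of 3 HepG2 libraries and higher in 3 of 3 Huh7 libraries than in any Ctrl-siRNA library of the line. CERS6 had 0.50 (SE 0.158, adjusted p = 0.0382), a call that 10 of the 12 single libraries decided.

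Of the neighbouring genes, ORMDL3 differed by -0.49 (adjusted p = 0.00728), SPHK1 by -1.04 (0.00305), SMPD2 by -1.0 (0.0112) and CERK by -1.01 (0.000514). SGMS2 had a difference of 1.80 (adjusted p = 0.00151), B4GALNT1 1.62 (0.000103) and HEXA 0.48 (0.00931). UGT8 had 3.06 (adjusted p = 0.00755), but with 0 to 12 counts per library in HepG2 it did not pass the filter there. UGT8 entered the fit over 12 libraries through its Huh7 counts only, so this value is not read as a difference between the lines. Calls that single libraries decided were those of SGPP1 (0.51, adjusted p = 0.0444, and 0.0566 to 0.123 without any 1 of 9 libraries), GLTP (0.42, adjusted p = 0.0298, and 0.0531 to 0.0886 without any 1 of 6), B4GALT5 (-0.42, adjusted p = 0.019, and 0.053 without Ctrl-siRNA replicate 3 or 0.0519 without UBL5 siRNA replicate 1 of Huh7) and NEU1 (0.33, adjusted p = 0.0235, and 0.0727 without Ctrl-siRNA replicate 2 or 0.0654 without UBL5 siRNA replicate 2 of Huh7).

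A few genes of the lists, chosen after their values were seen, were called in opposite directions. ACER2, a Golgi ceramidase gene, was at 9.01 ± 0.440 CPM with UBL5 siRNA against 3.96 ± 0.114 CPM with Ctrl-siRNA in HepG2, and at 1.06 ± 0.168 CPM against 1.96 ± 0.085 CPM in Huh7 (SD, n = 3 each). Its log2 fold changes were 1.18 and -0.87, and the difference was 2.07 (SE 0.261, adjusted p = 0.000178). GM2A, the activator of ganglioside GM2 breakdown, was at 0.82 in HepG2 and -0.39 in Huh7, with a difference of 1.25 (SE 0.107, adjusted p = 1.17e-05). PSAP, the precursor of the saposins, was at 0.24 in HepG2 (adjusted p = 0.0255), while in Huh7 it was at -0.14 (0.0276), with a difference of 0.41 (SE 0.083, adjusted p = 0.00377). The calls of PSAP within the lines were lost without Ctrl-siRNA replicate 1 (0.089) or 3 (0.0707) or UBL5 siRNA replicate 1 (0.0607) of HepG2, and without Ctrl-siRNA replicate 2 (0.0974) or UBL5 siRNA replicate 2 (0.156) or 3 (0.122) of Huh7.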

How the results depend on the processing

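In HepG2, the number of genes called was 3819 to 7270 with 1 library left out (5780 with all), and 1985 to 3892 genes were lower, both lowest without UBL5 siRNA replicate 2. Of the 10 genes, 2 to 3 were then higher and 2 to 3 lower (4 and 3 with all), with 2 higher without UBL5 siRNA replicate 1 or 2. For the difference between the lines, 0 to 2 of the 10 were called higher and 1 to 2 lower with 1 library left out. Without replicate 3 of both HepG2 groups, chosen after seeing the data, these counts were 3 and 2, and CERS4 turned to 0.18 in the comparison of the Ctrl-siRNA groups. With the replicate block, 6431 genes were called in HepG2 and 12672 in Huh7, and no call of the 10 genes changed in any comparison, although SGPP1 lost its call for the difference (0.0503) and ARSA gained one (0.75, adjusted p = 0.00459, edgeR, against 0.78 and 0.0774 without the block). In Huh7, 2 same-numbered pairs were alike and 1 was not. Library totals in place of TMM shifted the median of all genes by -0.12 in the comparison of the Ctrl-siRNA groups and by no more than 0.08 in the others, and ended the calls of SPTLC1 in HepG2 and SPTLC2 in Huh7. The count of genes in HepG2 was 7733, and in Huh7 8530, with 1 fit over 12 libraries, where no call of the 10 genes changed. With the longest transcript as length, the mean shares of CERS2, CERS4, CERS5 and CERS6 were 64.5, 20.6, 8.92 and 6.0% with UBL5 siRNA against 63.9, 14.7, 13.4 and 7.91% with Ctrl-siRNA in HepG2, and 77.7, 16.1, 2.59 and 3.57% against 79.0, 9.32, 5.02 and 6.64% in Huh7. The cause of these changes was not tested. With 3 libraries per group and the wider spread of HepG2, small changes there, such as those of SPTLC1 and SPTLC2, lie near the limit of what could be called. SGMS2, ACER2 and UGT8 have few counts.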

Other observations

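For each of the genes called in both lines, the gene with the most similar profile was looked up among 15667 others, as the smallest root mean square difference of centred log2 CPM over the 12 libraries. For DEGS1 it was TPM3, a tropomyosin gene (0.07), for UGCG the phosphatase gene PPM1A (0.09), and for SMPD1 the zinc finger gene ZNF587B (0.17). For CERS2 it was ZNF160 (0.08), for CERS4 STMN3 (0.14), for SPTLC1 ANKRD13C (0.06) and for SPTLC2 TRAPPC8 (0.12). None of these neighbours is among the sphingolipid genes of the lists. The 12 libraries share the line and siRNA groups, so these values describe likeness of profile only.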
